A study of Mus musculus with 6 samples.

Results

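The genes described are 45 mouse genes of the interferon system, chosen by symbol: 4 receptor chains, 6 interferon regulatory factors (IRFs) and 35 interferon-stimulated genes. They were measured among 56748 genes by RNA-seq of whole uteri, and all 45 were among the 16605 genes with enough reads to be tested. The experiment set 3 uteri from *Gp130* ecKO females against 3 control uteri at 1600 h on day 4 of pregnancy, shortly before the embryo attaches, and asks what loss of Gp130 in the epithelium does to gene expression. *Gp130*, also named *Il6st*, encodes the signal-transducing receptor chain shared by LIF and the other cytokines of the interleukin 6 family. The *Gp130* ecKO females had the genotype *Ltf* iCre/+; *Gp130* flox/flox, whereas the controls are called WT in the labels and, in the methods, were *Ltf* +/+; *Gp130* flox/flox or wildtype. Both groups were over 8 weeks of age, on the C57BL/6J background, and pregnant by fertile wildtype males. The iCre stands in the lactoferrin gene, which is active in uterine epithelium and also in neutrophils and macrophages, and deletion in single cell types was not measured here. In whole-uterus RNA, fewer cells of a type and less RNA per cell cannot be told apart.

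Interferons are secreted proteins that warn cells of infection. Type I interferons bind the receptor of *Ifnar1* and *Ifnar2* and interferon gamma that of *Ifngr1* and *Ifngr2*; both act through JAK kinases, and type I signals through STAT2 and IRF9, which bind a DNA element named ISRE. The interferon-stimulated genes encode sensors of foreign RNA and DNA, enzymes that degrade RNA or stop translation, and membrane proteins and GTPases that block viruses and intracellular microbes. In the uterus of several mammals such genes are known as targets of interferons made by the conceptus or by the endometrium itself.

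Total expected counts per uterus ranged from 13960748, in control 3, to 25906443. The targeted gene *Il6st* (chromosome 13, 112600604 to 112646620, GRCm39) was read as CPM, the count scaled to library size. In controls 1 to 3 it had 631, 678 and 452 CPM, against 388, 349.8 and 362 in *Gp130* ecKO 1 to 3. The groups did not overlap, and the log2 fold change of *Gp130* ecKO over control (log2FC) was −0.68 (standard error, SE, 0.21; adjusted p = 0.120 in edgeR's quasi-likelihood test). Control 2 stood nearer to the *Gp130* ecKO uteri than the other controls did, with a correlation of log2 CPM across genes of 0.967 with *Gp130* ecKO 2 and 0.958 with control 1. Markers of uterine epithelium were present in every uterus, with a summed CPM of 8 genes from 1847 to 2766 in the controls and from 4036 to 5789 in *Gp130* ecKO, and 4 of the 8 were wholly higher there (beside 15.7% of all tested genes). The summed CPM of 8 stromal markers ran the other way, 4096 to 5042 in the controls and 2195 to 2926 in *Gp130* ecKO, and 6 of the 8 were wholly lower (beside 15.6%). All 6 endothelial markers had log2FC values below 0, with a median of −1.23, and 5 of the 6 were wholly lower in *Gp130* ecKO (beside 15.6%). The part of this tissue makeup in the results below was not tested.

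None of the 45 interferon genes passed the thresholds of an adjusted p under 0.05 and more than 2-fold change in edgeR's quasi-likelihood test, which 26 of all tested genes (0.157%) did, 21 higher (0.126%) and 5 lower (0.0301%). The lowest adjusted p among the 45 was 0.0732, for *Ifngr2*. At an unadjusted p under 0.05 there were 10 of 45 (22.2%), 4 higher and 6 lower in *Gp130* ecKO, beside 25% of all tested genes, 12.1% higher and 12.9% lower. In CPM, every *Gp130* ecKO uterus lay on one side of every control uterus for 8 of 45 (17.8%), 4 higher and 4 lower, beside 31.3% of all tested genes, 15.7% higher and 15.6% lower. The median log2FC of the list was −0.0012, with 22 values above 0 and 23 below, where the median of all tested genes was −0.0467. It depended on single uteri, being 0.37 without control 1 (31 above and 14 below) and −0.17 without control 3 (19 above and 26 below). DESeq2 called 4 of the 45 (8.89%, beside 9.31% of all genes): *Oasl1* higher (4.41% of all genes), and *Gbp2*, *Irf5* and *Isg20* lower (4.9%). The exact test of edgeR, which called 7.54% of all genes, called *Oasl1* higher (3.75%) and *Isg20* lower (3.79%). The quasi-likelihood test without control 2, which called 5.23%, called *Ifngr2* higher (3.41%) and *Oas2* lower (1.82%).

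**Figure D1:**
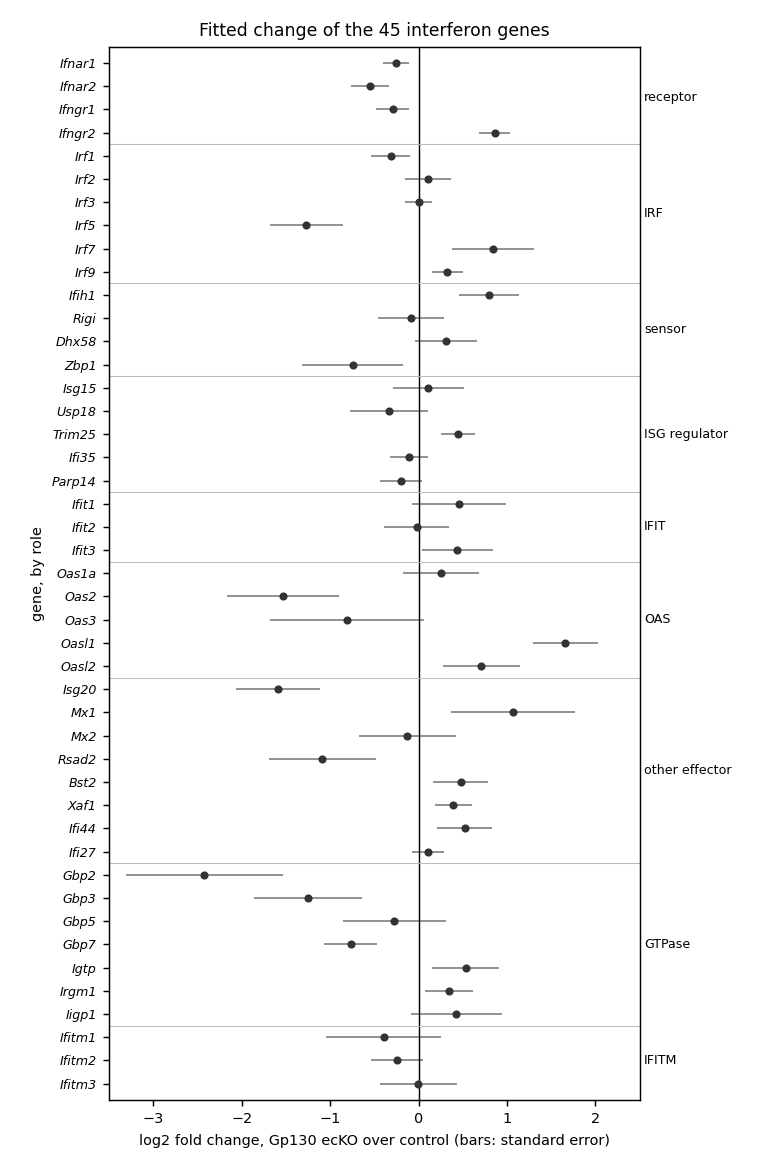
Log2FC of each of the 45 interferon genes, *Gp130* ecKO over control (x axis, log2 units; points are the fitted values and bars the standard error of edgeR's fit to 3 uteri a group), in order of role (y axis). The values scatter on both sides of 0, from −2.42 for *Gbp2* to 1.66 for *Oasl1*.

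The abundance of the 45 genes spanned about 3 orders of magnitude, as TPM, which is scaled for gene length. The 3 IFITM genes led. *Ifitm3* had a mean of 1163 TPM over the controls (830.2 to 1548), *Ifitm2* 876.8 (672.2 to 1036) and *Ifitm1* 634.6 (299.1 to 1207), and these ranges overlapped. They encode small membrane proteins that keep enveloped viruses from fusing with endosomes. *Bst2*, encoding tetherin, which holds budding virus at the cell surface, followed with 230.5 TPM (172 to 320.9), and the exonuclease gene *Isg20* with 154.2 (80.5 to 260.1). At the other end stood *Mx2* with 1.87 TPM and *Mx1* with 0.54, the genes of the myxovirus resistance GTPases. *Mx1* rested on as few as 10.68 expected counts, in control 2, so its values carry large counting error. The members between the extremes, from *Ifi27* at 96.8 to *Oasl1* at 2.67 TPM in the controls, formed a gradual series in which neighbours mostly overlapped.

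**Figure D2:**
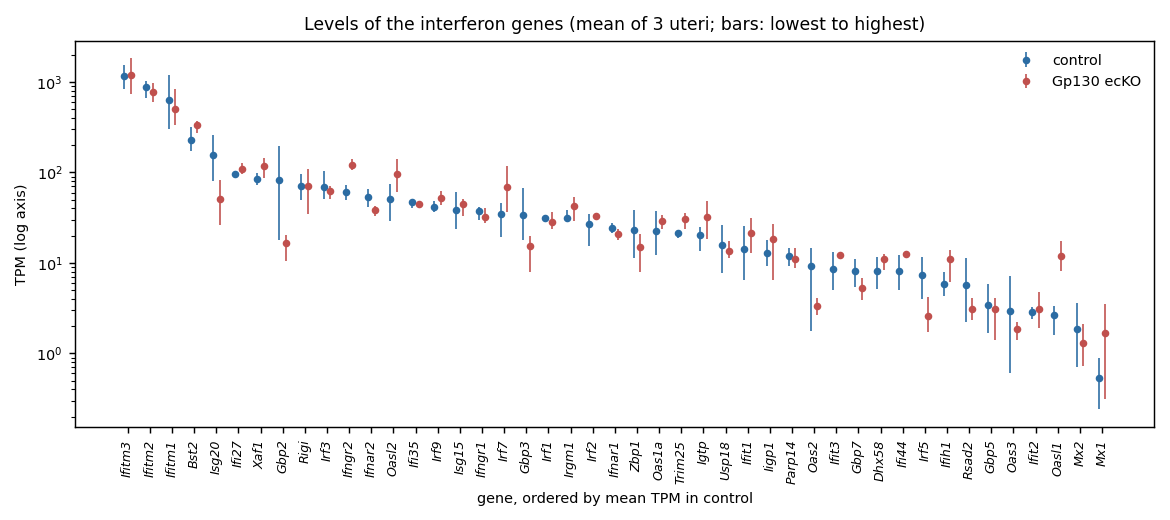
TPM of the 45 interferon genes on a log axis (y), ordered along the x axis by the mean of the 3 controls; points are means of 3 uteri and bars run from the lowest to the highest uterus. The IFITM genes stand highest, and in *Oasl1* and *Ifngr2* the *Gp130* ecKO range lies above the control range.

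Among the receptors, *Ifngr2* (ENSMUSG00000022965), the signalling chain of the interferon gamma receptor, differed most. Its CPM was 82.04, 113.3 and 87.21 in controls 1 to 3 and 166.5, 184.4 and 162.8 in *Gp130* ecKO 1 to 3. The lowest *Gp130* ecKO uterus thus stood well above the highest control, and the means were 94.2 ± 16.8 and 171 ± 11.6 (SD, n = 3 each). The log2FC was 0.86 (SE 0.18, 95% interval 0.45 to 1.27), which is a 1.82-fold difference, with an adjusted p of 0.0732. The adjusted p was 0.00118 with DESeq2 and 0.0131 with the exact test, where the difference stayed under 2-fold. Leaving out control 2 brought it to 0.0298, and leaving out any other uterus gave 0.136 to 0.2131.

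The type I receptor chains lay on the other side. *Ifnar2*, the chain that binds interferon with high affinity, had 63.03, 50.28 and 40.74 CPM in the controls and 29.57, 36.57 and 39.26 in *Gp130* ecKO. The groups did not overlap in CPM, but the lowest control and the highest *Gp130* ecKO uterus were nearly equal, and the log2FC was −0.55 (SE 0.21, adjusted p = 0.174). In TPM the groups of *Ifnar2* overlapped, with 40.99 in the lowest control and 42.95 in the highest *Gp130* ecKO uterus. *Ifnar1*, its partner chain, had 67.92, 61.58 and 70.14 CPM in the controls and 53.85, 59.45 and 54.05 in *Gp130* ecKO, with a log2FC of −0.25 (SE 0.15, adjusted p = 0.314). Its groups also overlapped in TPM, with 21.62 in the lowest control and 23.75 in the highest *Gp130* ecKO uterus. *Ifngr1*, the ligand-binding chain for interferon gamma, overlapped between the groups, at 46.54 to 64.69 CPM in the controls and 41.96 to 52.18 in *Gp130* ecKO. *Ifngr2*, *Ifnar1* and *Ifnar2* are neighbours on chromosome 16, within 192.9 kb of GRCm39 (91169618 to 91362512), all on the plus strand. The fourth gene of that cluster, *Il10rb*, which encodes a chain of the interleukin 10 and interferon lambda receptors and was taken up for its position after its values were seen, had 24.14 to 34.22 CPM in the controls and 18.04 to 21.93 in *Gp130* ecKO. Of these 4 neighbours, 3 had lower values in *Gp130* ecKO and *Ifngr2* alone higher ones. RSEM had to divide reads between *Ifnar2* and the overlapping model *Gm21970*, which shares 15.6% of the 75-base stretches of *Ifnar2*.

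The 6 IRFs gave no common direction, with 4 log2FC values above 0 and 2 below. *Irf9*, the DNA-binding partner of STAT2, had 70.03, 75.2 and 52.94 CPM in the controls and 81.06, 86.68 and 80.29 in *Gp130* ecKO, a log2FC of 0.32 (SE 0.18, adjusted p = 0.288). In CPM the 3 *Gp130* ecKO uteri were close together and just above the highest control. In TPM the groups of *Irf9* overlapped, with 48.49 in the highest control and 44.23 in the lowest *Gp130* ecKO uterus. *Irf5*, which drives inflammatory cytokine genes in macrophages and other myeloid cells, had 9.18, 6.56 and 12.9 CPM in the controls and 2.62, 5.96 and 3.19 in *Gp130* ecKO. Its log2FC was −1.27 (SE 0.42, adjusted p = 0.132), and 0.0383 with DESeq2. The summed CPM of 12 macrophage markers overlapped between the groups, 532.1 to 607.4 in the controls and 448.1 to 676.7 in *Gp130* ecKO. The sum hides single markers: *Gp130* ecKO 1 had 650.8, yet was the lowest uterus for 9 of the 12. Their median deviation from the gene mean, in log2(CPM + 0.5), was 0.02, 0.51 and 0.58 in controls 1 to 3. In *Gp130* ecKO 1 to 3 it was −1.28, 0.33 and −0.43. Of the 12, 9 had log2FC values below 0 and 3 above (beside 47.1% of all tested genes above). Only *Mrc1* (8.33%, beside 15.6% of all tested genes) was wholly lower in *Gp130* ecKO. The part of myeloid cells in the *Irf5* values was not tested. *Irf7*, the amplifier of type I interferon production, ranged from 24.6 to 65.33 CPM in the controls and from 44.89 to 133.9 in *Gp130* ecKO, the highest value being that of *Gp130* ecKO 2. *Irf1*, *Irf2* and *Irf3* overlapped between the groups with log2FC values of −0.31, 0.11 and 0.0013. *Irf3*, which is switched on by phosphorylation rather than by its level, was the steadiest member in CPM. It had 60.56 to 61.74 CPM in the controls and 55.11 to 69.58 in *Gp130* ecKO, and its sign turned with a stricter filter. In TPM it was not steady, with 50.59 to 103.2 over the controls, where *Irf1* had 31.02 to 32.84.

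**Figure D3:**
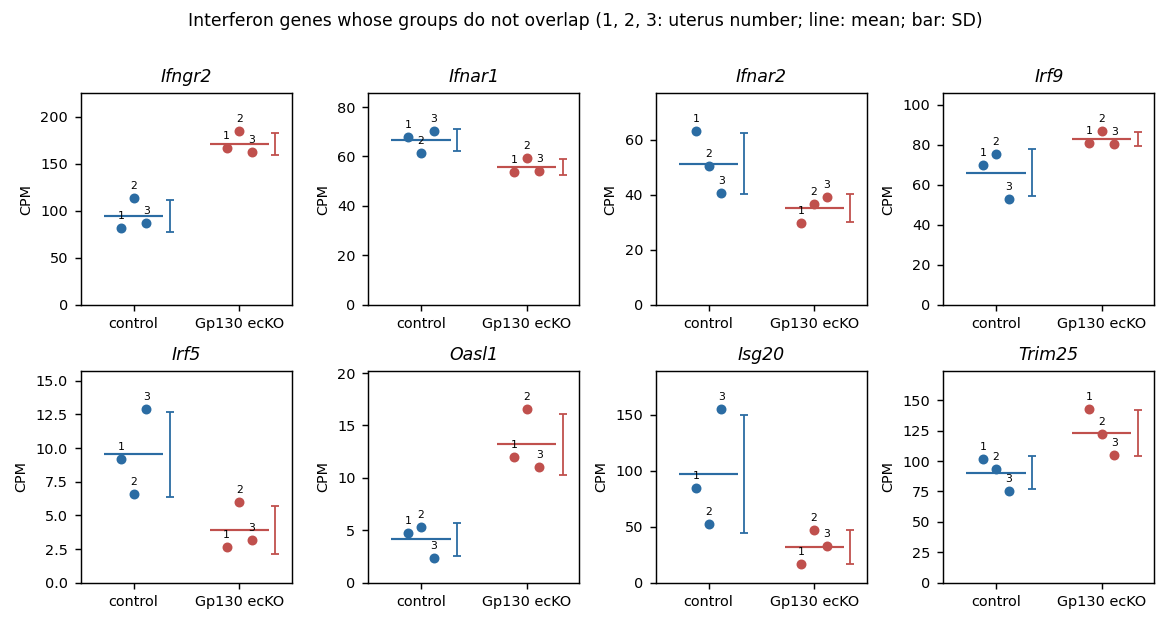
CPM in each uterus (y axis, from 0; points are numbered by uterus, horizontal lines are group means and vertical bars the SD of 3 uteri) for the 8 interferon genes whose groups did not overlap. *Ifngr2*, *Irf9*, *Oasl1* and *Trim25* lie higher in *Gp130* ecKO, and *Ifnar1*, *Ifnar2*, *Irf5* and *Isg20* lower.

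The sensors of foreign nucleic acid overlapped between the groups. *Ifih1*, which encodes the double-stranded RNA sensor MDA5, had 27.51, 16.93 and 13.34 CPM in the controls and 39.6, 38.46 and 22.51 in *Gp130* ecKO, so that only *Gp130* ecKO 3 fell within the control range. Its log2FC was 0.80 (SE 0.34, adjusted p = 0.196). *Rigi* (100.6 to 267.5 CPM over the 6 uteri), its sister sensor of viral RNA ends, and *Dhx58* (8.6 to 19.98 CPM), a regulator of both, had log2FC values of −0.09 and 0.31. *Zbp1*, a sensor of Z-form nucleic acid that triggers cell death, ranged from 36.2 CPM in control 1 down to 5.651 in *Gp130* ecKO 1.

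Of the 5 regulators among the interferon-stimulated genes, *Trim25* was wholly higher in *Gp130* ecKO. This gene encodes the ubiquitin ligase that activates RIG-I and also carries ISG15, and it had 102, 93.63 and 75.68 CPM in the controls and 142.5, 122.2 and 104.9 in *Gp130* ecKO. The nearest uteri of the groups differed little, and the log2FC was 0.45 (SE 0.19, adjusted p = 0.195). *Isg15*, the ubiquitin-like modifier known as a marker of the uterine response to pregnancy in several mammals, had 30.66, 15.19 and 10.73 CPM in the controls and 15.01, 21.23 and 24.87 in *Gp130* ecKO. Control 1 was the highest and control 3 the lowest of the 6, the *Gp130* ecKO uteri lay between them, and the log2FC of 0.11 turned to −0.17 without control 3 and to 0.67 without control 1. *Usp18*, which removes ISG15 and damps the receptor, *Ifi35*, a partner of NMI, and *Parp14*, an ADP-ribosyltransferase, had log2FC values between −0.33 and −0.10, each with overlapping groups.

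The IFIT genes encode proteins that bind foreign RNA and stop its translation. *Ifit1* (12.07 to 54.21 CPM), *Ifit2* (5.11 to 11.9) and *Ifit3* (6.07 to 18) had log2FC values of 0.45, −0.02 and 0.44, and the groups overlapped in all 3. Reads of *Ifit3* are partly divided with *Ifit3b*, which shares 23.5% of its 75-base stretches.

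The oligoadenylate synthetase genes, whose products switch on RNase L when they meet double-stranded RNA, held the largest positive difference of the list. *Oasl1* (ENSMUSG00000041827, chromosome 5, 115061294 to 115075974), which encodes a family member without that enzyme activity that restrains translation of *Irf7* mRNA, had 4.73, 5.32 and 2.33 CPM in the controls and 11.98, 16.54 and 11.07 in *Gp130* ecKO. Every *Gp130* ecKO uterus was more than 2-fold above every control, with means of 13.2 ± 2.93 and 4.13 ± 1.58 (SD, n = 3 each). The log2FC was 1.66 (SE 0.37, 95% interval 0.80 to 2.51, adjusted p = 0.0807). It kept its sign with each uterus left out, from 1.39 to 1.90, and the adjusted p was 0.000803 with DESeq2 and 0.00619 with the exact test. Its neighbour *Oasl2*, 11 kb away on the same strand, had 122.5, 72.57 and 35.74 CPM in the controls and 108.4, 175.2 and 94.64 in *Gp130* ecKO, where control 1 lay inside the *Gp130* ecKO range.

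*Oas2* and *Oas3* were, unlike *Oasl1*, at their highest in control uteri. *Oas2* had 31.96, 5.17 and 39.74 CPM in the controls and 7.28, 9.46 and 9.7 in *Gp130* ecKO. Controls 1 and 3 were far above the *Gp130* ecKO uteri and control 2 below all of them, and the log2FC of −1.53 (SE 0.64, adjusted p = 0.192) became −1.99 with an adjusted p of 0.0155 without control 2. *Oas3*, 3.2 kb away, had 27.14, 2.16 and 3.27 CPM in the controls and 7.41, 5.92 and 5.31 in *Gp130* ecKO, so that control 1 alone was high. Its log2FC of −0.82 turned to 1.24 without control 1, and DESeq2 gave it no adjusted p. *Oas1a* overlapped between the groups, at 16 to 54.98 CPM, and shares 11.6% of its 75-base stretches with other genes, mainly *Oas1g*.

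Among the other effectors, *Isg20* (ENSMUSG00000039236, chromosome 7, 78562598 to 78570153), encoding an exonuclease that degrades single-stranded RNA, was wholly lower in *Gp130* ecKO. It had 84.31, 52.44 and 155 CPM in the controls and 17.04, 47.07 and 32.5 in *Gp130* ecKO, with means of 97.2 ± 52.5 and 32.2 ± 15 (SD, n = 3 each). Control 2 and *Gp130* ecKO 2 nearly met, at 52.44 and 47.07 CPM. The log2FC was −1.59 (SE 0.48, 95% interval −2.71 to −0.48), a 3.02-fold lower level with an adjusted p of 0.115, which was 0.0171 with DESeq2 and 0.0268 with the exact test. *Rsad2*, encoding viperin, which makes a chain-terminating nucleotide, had 33.78, 10.22 and 5.93 CPM in the controls and 6.51, 9.96 and 7.05 in *Gp130* ecKO. Only control 1 stood out, and the log2FC of −1.09 (SE 0.61, adjusted p = 0.296) shrank to −0.03 without it. *Mx1* had 0.89, 0.42 and 1.67 CPM in the controls and 1.85, 3.38 and 0.66 in *Gp130* ecKO, and *Mx2* ranged from 0.90 to 2.65 CPM, both with overlapping groups. *Bst2* had 186.7, 109.7 and 88.21 CPM in the controls and 191.1, 129.3 and 214.2 in *Gp130* ecKO, where again control 1 reached the *Gp130* ecKO level. *Xaf1*, a promoter of apoptosis, *Ifi44* and *Ifi27* had log2FC values of 0.39, 0.52 and 0.10 with overlapping groups.

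The groups overlapped in all 3 IFITM genes. *Ifitm3* had 757.5, 516.6 and 361.3 CPM in the controls and 316.7, 426 and 891.5 in *Gp130* ecKO. *Ifitm1* had 488.1, 113.7 and 141 CPM in the controls and 121.3, 108 and 335.2 in *Gp130* ecKO, and *Ifitm2* 487.5, 412.3 and 281.4 against 253.5, 286.8 and 455.6. In all 3 genes control 1 and *Gp130* ecKO 3 were the highest uteri of their groups. The summed CPM of 6 smooth muscle markers had the same pair on top, at 2781 in control 1 and 2994 in *Gp130* ecKO 3, beside 2081 in control 2 and 475.4 to 897.6 in the other 3 uteri; the part of muscle in the IFITM values was not tested. The log2FC of *Ifitm3*, −0.0012, turned to 0.0151 with the size factors of DESeq2, and 41.4% of its 75-base stretches lie opposite another annotated gene, *Gm57251*, where reads can be told apart only if strand was used in counting. The same holds for 35.1% of the stretches of *Irf1*, 19.9% of *Isg15*, 13.8% of *Ifi35* and 11.5% of *Ifitm2*. On its own strand *Ifitm2* shares 19% of its stretches with other gene models, mainly *Gm45717*, so its values are uncertain too.

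The GTPases of the list defend against intracellular microbes by coating the vacuoles in which they live. The 3 immunity-related GTPases *Igtp*, *Irgm1* and *Iigp1* had log2FC values of 0.53, 0.35 and 0.43, each with overlapping groups. With single uteri left out, these ranged from 0.22 to 0.81, from 0.23 to 0.58 and from 0.18 to 0.84. The 4 guanylate-binding proteins had negative values, and *Gbp2* (ENSMUSG00000028270, chromosome 3, 142326349 to 142343779) had the lowest of the list. Its CPM was 388.9, 33.82 and 54.21 in the controls and 18.36, 30.3 and 40.29 in *Gp130* ecKO. Control 1 was 8.84 times the mean of the other controls, which overlapped the *Gp130* ecKO uteri. The log2FC of −2.42 (SE 0.89, adjusted p = 0.157) was −0.53 without control 1, with an adjusted p of 0.451. *Gbp3* showed the same single high uterus. Its CPM was 135.7, 34.01 and 32.67 in the controls and 14.74, 33.69 and 36.52 in *Gp130* ecKO, and its log2FC of −1.25 became −0.20 without control 1. *Gbp7* (22.67 to 43.74 CPM in the controls, 14.92 to 23.61 in *Gp130* ecKO) and *Gbp5* (2.89 to 13.84 CPM) had log2FC values of −0.77 and −0.27.

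A single uterus therefore carried much of the variation of the list. Control 1 was the highest of the 6 uteri for 21 of the 45 genes (46.7%), where it was the highest for 18.2% of all tested genes. It exceeded the mean of the other controls by more than 2-fold for 14 of 45 (31.1%, beside 5.45% of tested genes) and by more than 4-fold for 4, namely *Oas3*, *Gbp2*, *Rsad2* and *Gbp3*. Control 3, the library with the fewest reads, was the lowest uterus for 19 of 45 (42.2%, beside 24.2%), and *Gp130* ecKO 1 for 16 (35.6%, beside 20.8%). The median deviation from the mean of a gene over the 6 uteri, in log2(CPM + 0.5), was 0.42, −0.17 and −0.38 in controls 1 to 3 and −0.27, 0.14 and −0.04 in *Gp130* ecKO 1 to 3. The controls thus spanned the *Gp130* ecKO uteri on both sides. The median log2FC of 0.37 for the list without control 1 stood beside 0.0006 for all tested genes.

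The endothelial markers, with all 6 log2FC values below 0, also varied among the controls. None of them passed the thresholds of the quasi-likelihood test, where their lowest adjusted p was 0.0861. All 6 of them, *Pecam1*, *Kdr*, *Cdh5*, *Tek*, *Emcn* and *Flt1*, had their highest value in control 1, and their summed CPM was 873.4 in that uterus, against 626.1 in control 2 and 372.6 in control 3. In *Gp130* ecKO 1 to 3 it was 196.2, 359.6 and 285.8. The summed CPM of the 5 of 9 neutrophil markers with enough counts to be tested was low but did not overlap between the groups, at 7.16, 8.64 and 5.33 in controls 1 to 3 against 1.13, 3.69 and 4.31 in *Gp130* ecKO 1 to 3. Of the 5, 3 were wholly lower in *Gp130* ecKO (beside 15.6%), and the median log2FC of the 5 was −3.06. *Ly6g* overlapped between the groups, with a log2FC of 1.08. *Ngp* was at 0 counts throughout, *S100a8* at 0 in *Gp130* ecKO 1 and *S100a9* at 0 in *Gp130* ecKO 1 and 2. The summed CPM of 11 T and NK cell markers was 37.9 in control 1, within the range of 12.6 to 54.2 over the 6 uteri, and 10 of the 11 had log2FC values below 0, with a median of −0.37. All 11 overlapped between the groups, and their lowest adjusted p in the quasi-likelihood test was 0.315. None of 4 markers of plasmacytoid dendritic cells, the main blood source of type I interferon, had enough counts to be tested. The part of these cells in the high values of control 1, or in the differences between the groups, was not tested.

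**Figure D4:**
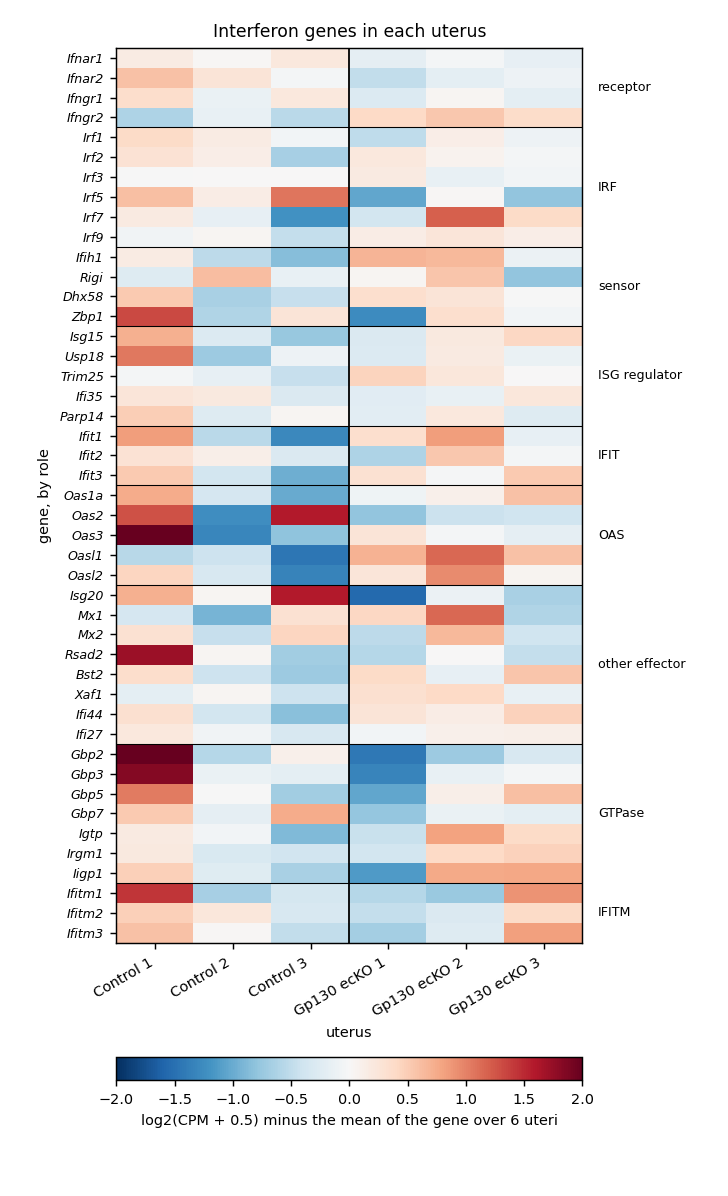
Log2(CPM + 0.5) of each interferon gene in each uterus minus the mean of the gene over the 6 uteri (colour, scale limited to −2 and 2; *Oas3* and *Gbp2* pass the upper limit in control 1), with genes in order of role (y axis) and uteri on the x axis. Red is concentrated in the column of control 1, and blue in those of control 3 and *Gp130* ecKO 1, the lowest uteri for 19 and 16 of the 45 genes.

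The promoters of the 4 genes that stood out most in control 1 are shown with that of *Oasl1*, the gene with the largest positive difference. They were searched for the ISRE, and whether interferon acted on these genes in these uteri was not tested. Each run is 250 bases before to 50 after the start of the gene, 5′ to 3′ on the strand of the gene, from RefSeq on GRCm38.p6. Capitals mark the core of the ISRE, taken as GAAANNGAAA or, on the other strand, TTTCNNTTTC, with overlapping matches counted. The windows are chr3:142620413-142620712 (plus strand), chr3:142559794-142560093 (plus), chr5:120777610-120777909 (minus), chr12:26456403-26456702 (minus) and chr5:114922990-114923289 (plus).
Gbp2: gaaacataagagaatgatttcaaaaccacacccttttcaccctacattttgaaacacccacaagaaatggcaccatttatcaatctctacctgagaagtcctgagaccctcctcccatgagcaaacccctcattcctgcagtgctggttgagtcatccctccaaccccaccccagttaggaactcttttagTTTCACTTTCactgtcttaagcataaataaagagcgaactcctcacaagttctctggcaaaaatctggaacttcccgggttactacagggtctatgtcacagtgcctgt
Gbp3: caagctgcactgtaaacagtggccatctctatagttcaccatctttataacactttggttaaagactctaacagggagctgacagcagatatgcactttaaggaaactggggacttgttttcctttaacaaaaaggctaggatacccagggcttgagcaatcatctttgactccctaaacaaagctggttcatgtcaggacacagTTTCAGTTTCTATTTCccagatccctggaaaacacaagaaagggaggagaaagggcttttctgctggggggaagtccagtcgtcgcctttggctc
Oas3: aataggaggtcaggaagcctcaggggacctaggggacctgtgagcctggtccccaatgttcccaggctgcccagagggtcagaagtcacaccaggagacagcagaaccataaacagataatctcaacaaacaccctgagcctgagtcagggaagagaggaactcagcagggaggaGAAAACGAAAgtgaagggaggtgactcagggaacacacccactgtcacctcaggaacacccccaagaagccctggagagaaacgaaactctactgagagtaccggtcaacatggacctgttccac
Rsad2: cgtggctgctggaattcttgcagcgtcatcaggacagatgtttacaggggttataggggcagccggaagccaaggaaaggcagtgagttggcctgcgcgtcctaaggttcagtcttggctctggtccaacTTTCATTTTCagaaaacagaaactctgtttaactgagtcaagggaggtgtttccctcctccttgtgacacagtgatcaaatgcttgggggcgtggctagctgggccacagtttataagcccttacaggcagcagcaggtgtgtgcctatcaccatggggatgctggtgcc
Oasl1: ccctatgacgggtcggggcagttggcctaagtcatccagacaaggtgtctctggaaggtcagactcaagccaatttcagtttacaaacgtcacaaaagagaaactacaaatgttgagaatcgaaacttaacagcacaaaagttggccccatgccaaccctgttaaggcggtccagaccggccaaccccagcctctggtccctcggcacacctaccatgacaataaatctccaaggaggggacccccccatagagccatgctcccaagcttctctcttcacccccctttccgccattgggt
The core begins 59 bases before the start in *Gbp2*, 75 in *Oas3* and 120 in *Rsad2*, and the 2 overlapping cores of *Gbp3* begin 45 and 39 bases before it. A further *Gbp3* window, chr3:142560106-142560405, for another start of the gene, holds no core. The *Oasl1* window holds no match to these letters.

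A promoter window was found for 35 of the 45 genes and none was matched for *Mx1*, *Mx2*, *Zbp1*, *Rigi*, *Dhx58*, *Iigp1*, *Ifi27*, *Parp14*, *Oas2* and *Usp18*. The 35 had 41 windows, since some genes have more than 1 start, and a gene was counted where any of its windows held the letters. The ISRE core was present in 17 of the 35 (48.6%), beside 3.99% of 27025 genes with a window. The GAS element, known from genes that respond to interferon gamma and taken as TTCNNNGAA, was present in 13 of the 35 (37.1%, beside 9.55%). *Isg15*, *Ifit1*, *Ifit3*, *Bst2*, *Irgm1*, *Oas1a* and *Ifitm3* were among the genes with more than 1 ISRE core. Control 1 was the highest uterus for 11 of the 17 genes with a core and for 5 of the 18 without one. Of the 8 genes whose groups did not overlap, none had a core in its window, whereas 17 of the other 27 did. The 8 include the receptor and IRF genes *Ifngr2*, *Ifnar1*, *Ifnar2*, *Irf9* and *Irf5*. Among all the receptor and IRF genes of the list only *Irf2* had a core, so a split by core is partly a split by role. The median log2FC was 0.11 for the genes with a core and −0.01 for those without. These splits were made after the values were seen, and a match to the letters is a description of the window, not evidence of a bound factor.

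The interferon ligands gave a single testable gene. Of 21 ligand genes, *Ifnb1*, *Ifnl2* and all the alpha interferon genes had 0 counts in every uterus, where 3 counts, the limit that a count of 0 allows, would be a CPM of 0.115 to 0.2. The ligand genes not named here had too few reads to be tested, but not all of them were at 0. *Ifne*, the interferon that the epithelium of the reproductive tract makes under hormonal control and without infection, had 0.61, 1.35 and 1.6 CPM in the controls and 5.34, 3.62 and 2.82 in *Gp130* ecKO (chromosome 4, 88797775 to 88798438). The groups did not overlap, at 15 to 35 expected counts against 68 to 118. Its log2FC was 1.75 (SE 0.47, adjusted p = 0.100), and DESeq2 gave an adjusted p of 0.0113.

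The remaining pathway was read from lists of 112 further genes, of which 89 were tested. None passed the thresholds of the quasi-likelihood test, and 29 (32.6%, beside 25% of all tested genes) had an unadjusted p under 0.05, 20 higher and 9 lower (beside 12.1% and 12.9%). DESeq2 called 11 (12.4%, beside 9.31%) and the exact test 9 (10.1%, beside 7.54%). Groups did not overlap for 33 of the 89 (37.1%, beside 31.3%), 24 higher and 9 lower in *Gp130* ecKO (beside 15.7% and 15.6%). Among further receptors and signal transducers, the kinase gene *Jak2*, which acts at the interferon gamma receptor, had 167.5, 454.6 and 190.2 CPM in the controls and 573.7, 640.7 and 545.7 in *Gp130* ecKO (log2FC 1.12, adjusted p = 0.141). *Ptpn2*, whose phosphatase switches these signals off, had 65.78, 40.88 and 73.88 CPM in the controls and 33.14, 38.11 and 40.62 in *Gp130* ecKO (log2FC −0.69, adjusted p = 0.147). In *Jak2* and *Ptpn2* control 2 was the control nearest to the *Gp130* ecKO uteri.

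Among 13 genes of nucleic acid sensing, *Mavs*, the adaptor of MDA5 and RIG-I, was wholly higher, at 38.31, 40.57 and 31.94 CPM in the controls against 65.42, 53.68 and 48.5 in *Gp130* ecKO (log2FC 0.60, adjusted p = 0.121). The DNA sensor *Cgas* was wholly lower, at 7.2, 4.2 and 14.47 CPM in the controls against 2.58, 3.46 and 2.99 (log2FC −1.50, adjusted p = 0.124). Its adaptor *Sting1* was wholly lower as well, at 138.1, 42.61 and 50.74 CPM against 28.48, 23.92 and 35.57 (log2FC −1.40, adjusted p = 0.126). The 13 went both ways, with 8 log2FC values above 0 and 5 below, and none passed the thresholds of the quasi-likelihood test. DESeq2 called *Cgas* and *Sting1* lower (beside 4.9% of all genes), and the exact test called *Sting1* lower (beside 3.79%).

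The list of 58 further tested interferon-stimulated genes had a median log2FC of 0.20, and 21 had groups that did not overlap (36.2%, beside 31.3%), 16 higher and 5 lower (beside 15.7% and 15.6%). The 3 with the smallest p were guanylate-binding protein genes of chromosome 5. *Gbp9* had 17.96, 15.93 and 14 CPM in the controls and 27.44, 63.34 and 42.03 in *Gp130* ecKO (log2FC 1.47, SE 0.31, adjusted p = 0.0766). *Gbp8* had 1.29, 0.69 and 2.6 CPM in the controls and 9.72, 32.65 and 7.09 in *Gp130* ecKO (log2FC 3.49, SE 0.74, adjusted p = 0.0766). *Gbp10* had 0.20, 0 and 0.13 CPM in the controls and 0.54, 1.35 and 1.37 in *Gp130* ecKO (log2FC 3.28, adjusted p = 0.0811), but it shares 63.4% of its 75-base stretches with other genes, mainly *Gbp6*, and its counts are uncertain. All 3 were above every control in every *Gp130* ecKO uterus.

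The family was then set side by side by chromosome, a grouping made with the values known. In the chromosome 3 cluster of 5 genes, *Gbp2*, *Gbp3*, *Gbp5* and *Gbp7* had log2FC values below 0 and *Gbp2b*, which is in none of the lists, above 0, with a median of −0.77. Without control 1 the median was −0.20, with 2 of the 5 above 0. *Gbp2b* had 1, 310.64 and 1 expected counts in the controls and 198.25, 262.18 and 400.88 in *Gp130* ecKO. It was thus nearly unread in controls 1 and 3, whereas control 2 stood among the *Gp130* ecKO uteri. Its adjusted p of 0.495 became 0.00364 without control 2. Of the 6 genes of the chromosome 5 cluster *Gbp11* had too few reads to be tested, at most 3.28 expected counts in a uterus. The other 5, *Gbp4*, *Gbp6*, *Gbp8*, *Gbp9* and *Gbp10*, had a median of 1.87, and 2.25 without control 1. All 5 were above 0, beside 47.1% of all tested genes. DESeq2 called *Gbp4*, *Gbp6*, *Gbp8* and *Gbp9* higher (beside 4.41% of all genes), and the exact test called all 5 higher (beside 3.75%). *Gbp4* had 9.02 to 12.47 CPM in the controls and 15.82 to 34.92 in *Gp130* ecKO, and *Gbp6* 7.73 to 15.82 against 20.84 to 57.65. In each of these 5 genes no uterus of one group reached the other, where 15.7% of all tested genes were wholly higher. In *Gbp4*, *Gbp6*, *Gbp8* and *Gbp9* the highest value was that of *Gp130* ecKO 2. The gene models of *Gbp8*, *Gbp9* and *Gbp4* overlap on the minus strand (105162016 to 105287452, 105224332 to 105287452 and 105263633 to 105287609). *Gbp6* shares 57.2% of its stretches with other genes. The division of reads between these genes therefore depends on RSEM, and the 5 are not fully separate readings.

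**Figure D5:**
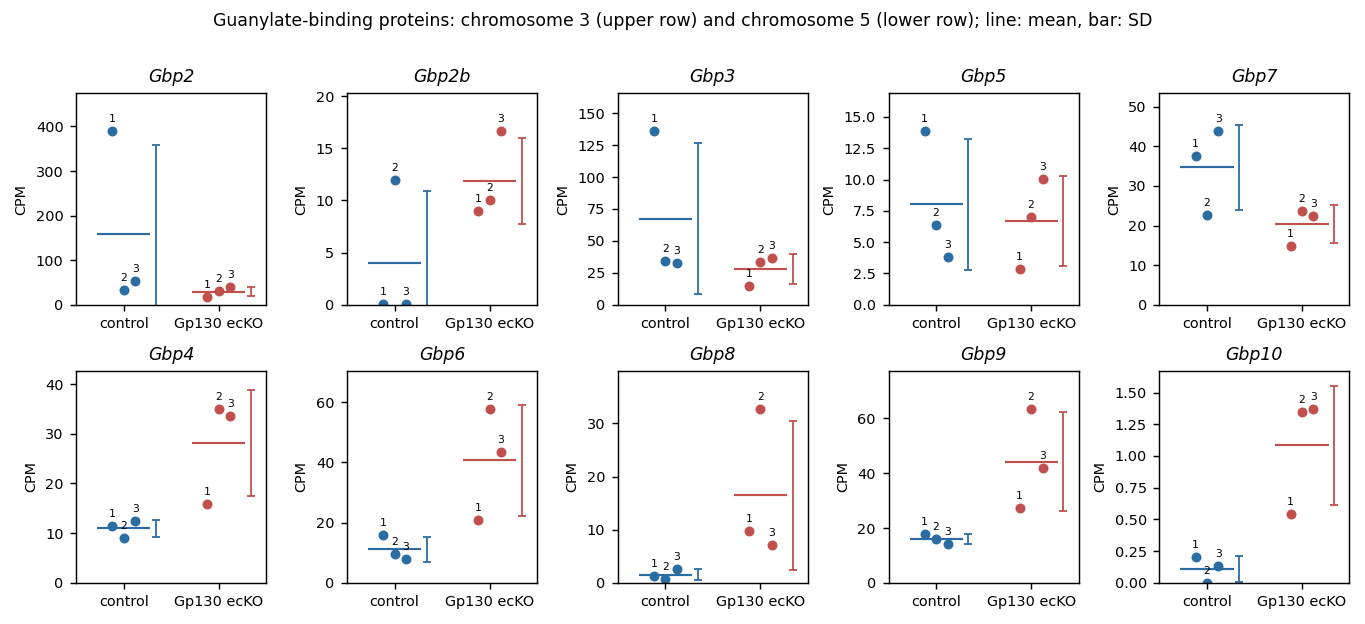
CPM in each uterus (y axis, from 0; points are numbered by uterus, horizontal lines are group means and vertical bars the SD of 3 uteri, cut at 0) for 10 guanylate-binding protein genes. In *Gbp2* and *Gbp3* control 1 stands alone, at 388.9 and 135.7 CPM, in *Gbp2b* controls 1 and 3 lie near 0, and in the genes of chromosome 5 all 3 *Gp130* ecKO uteri lie above the controls.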

How the data were processed

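The authors sequenced 1 library from each of 3 control and 3 *Gp130* ecKO uteri as 75-base single reads of strand-specific poly(A) libraries. Per the submitters' notes and the methods, reads were trimmed with fastp 0.23.2, cleared of ribosomal RNA with SortMeRNA, mapped to GRCm39 with STAR 2.7.10a and counted with RSEM 1.3.3. The deposited tables give the expected count per gene, not normalized, and the TPM that the authors scaled for length and depth. RSEM divides reads that fit several genes, and the annotation version and strand setting are not given in the sources used here. TPM was used for levels, never for tests.

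Expected counts were rounded and tested in R 4.3.3 with edgeR 4.0.16 (filterByExpr, TMM, quasi-likelihood F test; p-values adjusted by Benjamini-Hochberg over 16605 genes). The methods state edgeR 3.38.4 but not its test. CPM is relative to the TMM-scaled library. Standard errors are the log2 fold change over the square root of F. A gene was called at an adjusted p under 0.05 and over 2-fold. Symbols and coordinates came from GENCODE M39, which holds 56017 of the 56748 identifiers. Shared 75-base stretches were counted between its transcripts. On simulated data with 200 of 16605 genes changed 4-fold, the test called 105 of them and 8 unchanged genes.

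The 45 genes, the pathway and marker lists and the tests were chosen with earlier results of these data known. Named with full values were members called, or with groups that did not overlap. CPM per uterus was given for members with a log2 fold change of at least 1 in size and the 5 of highest mean TPM, and of each pathway list the 3 genes of smallest p among those without overlap. Others were named where a result turned on them. Some genes of the pathway lists that this rule takes are not reported here by name. Alternatives were DESeq2 1.42.0, the exact test, the legacy quasi-likelihood form, DESeq2 size factors, no filter, a filter of CPM 1 in 3 uteri, unrounded counts, a block for the replicate number, and a fit without each uterus in turn. The labels number the uteri 1 to 3 in each group and name no batch. Total expected counts of 13960748 to 25906443 per uterus limit the precision of genes of low count.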

Additional observations from a re-analysis of the deposited data

How the results depend on the processing

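Of the 45 interferon genes, 30 kept the direction of their log2FC in all 14 alternatives, and 15 changed it in at least 1, of which 11 did so only when a uterus was left out. The number of the 45 called was 4 with DESeq2, 2 with the exact test, 2 without control 2, and 0 in all other settings (0 to 2 with 1 uterus left out). Of the 89 pathway genes tested, DESeq2 called 11 (12.4%, beside 9.31% of all genes), the exact test 9 (10.1%, beside 7.54%), and the fits with 1 uterus left out 0 to 4, the highest without control 2 (4.49%, beside 5.23%). Over all genes, 26 were called, beside 1546 with DESeq2, 1252 with the exact test, 7 in the legacy quasi-likelihood form, 105 without a filter, and 1 to 897 with 1 uterus left out, the highest without control 2. The log2FC of *Il6st* was −0.67 with DESeq2, with an adjusted p of 0.0346. The cause of these differences between settings was not tested. The size factors of DESeq2 moved the median log2FC of all genes by 0.0152.

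Replicate numbers are not said to pair the uteri, and deviations of same-numbered uteri from their group means correlated at 0.104, 0.0691 and −0.196, so no pairing was assumed. With the replicate block, 6 genes were called over all and 0 of the 45, *Oas3* turned to 0.04 and *Irf3* to −0.0055. *Irf3* was −0.008 under the stricter filter, *Ifit2* 0.0034 without a filter, and *Ifitm3* 0.0152 with DESeq2, 0.0151 with its size factors and 0.0232 without a filter.

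With each uterus left out in turn, the log2FC values that crossed 0 ranged as follows: *Gbp5* −0.67 to 0.40, *Ifi27* −0.018 to 0.28, *Ifi35* −0.26 to 0.023, *Ifit2* −0.38 to 0.23, *Ifitm1* −1.09 to 0.60, *Ifitm3* −0.53 to 0.34, *Irf2* −0.13 to 0.32, *Irf3* −0.10 to 0.077, *Isg15* −0.17 to 0.67, *Mx2* −0.79 to 0.14, *Oas1a* −0.067 to 0.91, *Oas3* −1.29 to 1.24, *Parp14* −0.36 to 0.058, *Rigi* −0.43 to 0.27 and *Usp18* −0.64 to 0.37. The remaining members kept their sign with any uterus left out, but the size of some moved, as in *Rsad2*, *Gbp2*, *Gbp3*, *Ifit1* and *Ifit3*. Depth limits genes of low count such as *Mx1*, with 10.68 expected counts in control 2, and *Gbp10*, with 0 there.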

Other observations

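Of the 58 tested interferon-stimulated genes outside the 45, 21 had groups that did not overlap, 16 higher and 5 lower in *Gp130* ecKO (beside 15.7% and 15.6%). Those named here were singled out after their values were seen, and more of them are lower than higher, unlike the list. *Ifitm6*, a relative of the IFITM genes near *Ifitm3* on chromosome 7, had 59.02, 3.05 and 17.94 CPM in the controls and 0.59, 1.11 and 2.07 in *Gp130* ecKO. Its log2FC was −4.40 (SE 1.05, adjusted p = 0.0876 in edgeR's quasi-likelihood test), and −2.98 without control 1. *Slfn5*, a member of the Schlafen family, had 56.72, 44.15 and 36.74 CPM in the controls and 13.43, 22.84 and 23.71 in *Gp130* ecKO (log2FC −1.20, adjusted p = 0.0853). *Epsti1* had 17.34 to 22.17 CPM in the controls and 31.88 to 36.08 in *Gp130* ecKO (log2FC 0.81, adjusted p = 0.0827), and *Rnf213*, whose product coats intracellular bacteria with ubiquitin, had 66.25 to 71.32 against 89.16 to 142.6 (log2FC 0.76, adjusted p = 0.0964). The adjusted p-values of these 4 with DESeq2 were 3.116e-05, 0.005, 0.00236 and 0.0161. Of them DESeq2 called *Ifitm6* and *Slfn5* lower (beside 4.9% of all genes), whereas *Epsti1* and *Rnf213* stayed under 2-fold. *Ifi203*, *Ifi204* and *Ifi207*, which encode DNA-binding proteins, were wholly lower in *Gp130* ecKO, with log2FC values from −1.08 to −0.92 and adjusted p-values of 0.172, 0.218 and 0.238. Their listed relatives *Ifi209* and *Ifi213* overlapped between the groups, with log2FC values of −0.78 and −0.44.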
